A study of Homo sapiens with 12 samples.

Results

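Acyl-CoA thioesterases are enzymes that split fatty acyl-CoA esters into the free fatty acid and coenzyme A. The 8 genes described here (ACOT1, ACOT2, ACOT4, ACOT7, ACOT8, ACOT9, ACOT11 and ACOT13) were chosen by gene symbol from the 19677 genes of the count tables, and the other genes of the ACOT name, ACOT6 and ACOT12, are given beside them. RNA was sequenced from CAOV3, an established human line of high-grade serous ovarian carcinoma, in 12 libraries that formed 4 groups of 3. The control group was given DMSO, the ascites group 10% ovarian cancer ascites with DMSO, the bezafibrate group 200 uM of the drug, and the combination group both agents. All cells grew in medium with fetal bovine serum. Treatment lasted 16 hours in the 3 treated groups, and the labels give the control group no time and the drug groups no solvent. Ascites is the fluid that fills the abdominal cavity in advanced ovarian cancer. Bezafibrate belongs to the fibrates, which activate nuclear receptors of the PPAR family. The series asked how ascites and the drug, alone and together, change transcription in an ovarian cancer line.

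Inside cells, fatty acids are handled as CoA esters, which acyl-CoA synthetases make and thioesterases take apart. The free acid and the released CoA can then be used again, so the enzymes are held to set how much acyl-CoA each compartment contains. Family members differ in place. ACOT1 and ACOT7 act in the cytosol, ACOT2 and ACOT9 in mitochondria, and ACOT4 and ACOT8 in peroxisomes, while ACOT13 is a small enzyme linked to mitochondria. ACOT11 carries a lipid-binding START domain and was first described as a gene induced by cold in brown fat. PPAR receptors bind DNA together with RXR receptors and switch on many genes of fatty acid oxidation, and several thioesterase genes of the liver respond to fibrates.

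Levels are given as CPM, the count of a gene relative to the scaled library size. Total counts per library ran from 11831093 to 18762759, and 12470 genes had enough counts to be tested. Of the 8 thioesterase genes, 7 were tested and ACOT4 was not. The first principal component, with 37.0% of the variance, placed the 6 libraries with the drug apart from the 6 without it. Combination replicate 3 stood alone on the second component, with 9.88% of the variance, so the results below were also computed without it. Of the markers of the line, the keratins KRT8, KRT18 and KRT7 were high, at means of 3033, 1797 and 968 CPM. EPCAM was at 30.2 CPM and CDH1 at 34.9 CPM. PAX8 was at 0.676 CPM and MSLN at 0.393 CPM, and MUC16 and WT1 were near 0. The labels do not say whether replicates were separate cultures or how many ascites fluids were used. The p-values therefore measure the spread between these libraries, which may be technical. In bulk RNA, fewer cells of a type and less RNA per cell cannot be told apart.

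ACOT1, ACOT2 and ACOT4 lie side by side on chromosome 14 in GENCODE v29 (GRCh38), at chr14:73537114-73543794, chr14:73567620-73575658 and chr14:73591706-73596496, all on the plus strand. ACOT1 and ACOT2 are near-identical, which decides how far their rows can be read apart. Over the 1263 coding bases that both share, the transcripts differ at 13 positions, an identity of 98.97%. The last 466 of those bases are the same in both. The 60 coding bases with the most differences hold 4 of them, shown in capitals (plus strand, ACOT1 at chr14:73537784-73537843 and ACOT2 at chr14:73569789-73569848):
ACOT1: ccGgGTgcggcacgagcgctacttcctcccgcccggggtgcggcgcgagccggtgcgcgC
ACOT2: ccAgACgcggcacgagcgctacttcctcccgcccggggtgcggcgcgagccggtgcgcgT
ACOT2 has a further 186 coding bases at its start (chr14:73569241-73569426, plus strand), which ACOT1 lacks and which are shown, with the start codon in capitals, because none of its 137 windows of 50 bases occurs in the ACOT1 transcript:
ACOT2 start: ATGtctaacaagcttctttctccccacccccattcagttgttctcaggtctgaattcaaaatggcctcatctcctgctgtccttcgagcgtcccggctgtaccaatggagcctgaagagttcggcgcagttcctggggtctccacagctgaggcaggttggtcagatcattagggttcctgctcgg
Outside that start, much of the transcripts cannot be assigned by a short read. Of the 50-base windows of the ACOT1 transcript, 54.6% also occur in ACOT2, and 52.6% of the ACOT2 windows occur in ACOT1. With windows of 100 bases the shares were 33.8% and 32.6%. In contrast, no 50-base window of the main ACOT9 transcript and 4.22% of those of the main ACOT11 transcript occur in a transcript of another gene on either strand. Bases that other ACOT11 transcripts share with an opposite-strand gene are given with its results.

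The remaining genes lie apart from that cluster. ACOT7 is at chr1:6264269-6394391 (minus strand), ACOT11 at chr1:54542257-54639192 (plus), ACOT13 at chr6:24667035-24705065 (plus), ACOT8 at chr20:45841721-45857406 (minus) and ACOT9 at chrX:23702253-23766475 (minus). In the control cells ACOT7 was the highest of the 8 per length of its main transcript, at 41.6 ± 2.0 CPM per kb (SD, n = 3). ACOT9 followed at 18.3 ± 1.01 CPM per kb, then ACOT2 at 14.2 ± 1.26 and ACOT8 at 13.1 ± 1.67, whose library values overlapped. ACOT13 was at 6.30 ± 0.0944 CPM per kb, ACOT1 at 1.91 ± 0.572, ACOT11 at 0.343 ± 0.0615 and ACOT4 at 0.146 ± 0.0541. The order at the top depends on the transcript that is counted. With the shortest and the longest coding transcript, ACOT9 ranged from 9.84 to 44.9 CPM per kb in control cells and ACOT7 from 27.6 to 47.8. ACOT12 was not detected: its 0 counts over the 12 libraries together allow a level of at most 0.0173 CPM, as far as counting error goes. ACOT6 had 13 counts in all, at most 5 in a library.

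**Figure D1:**
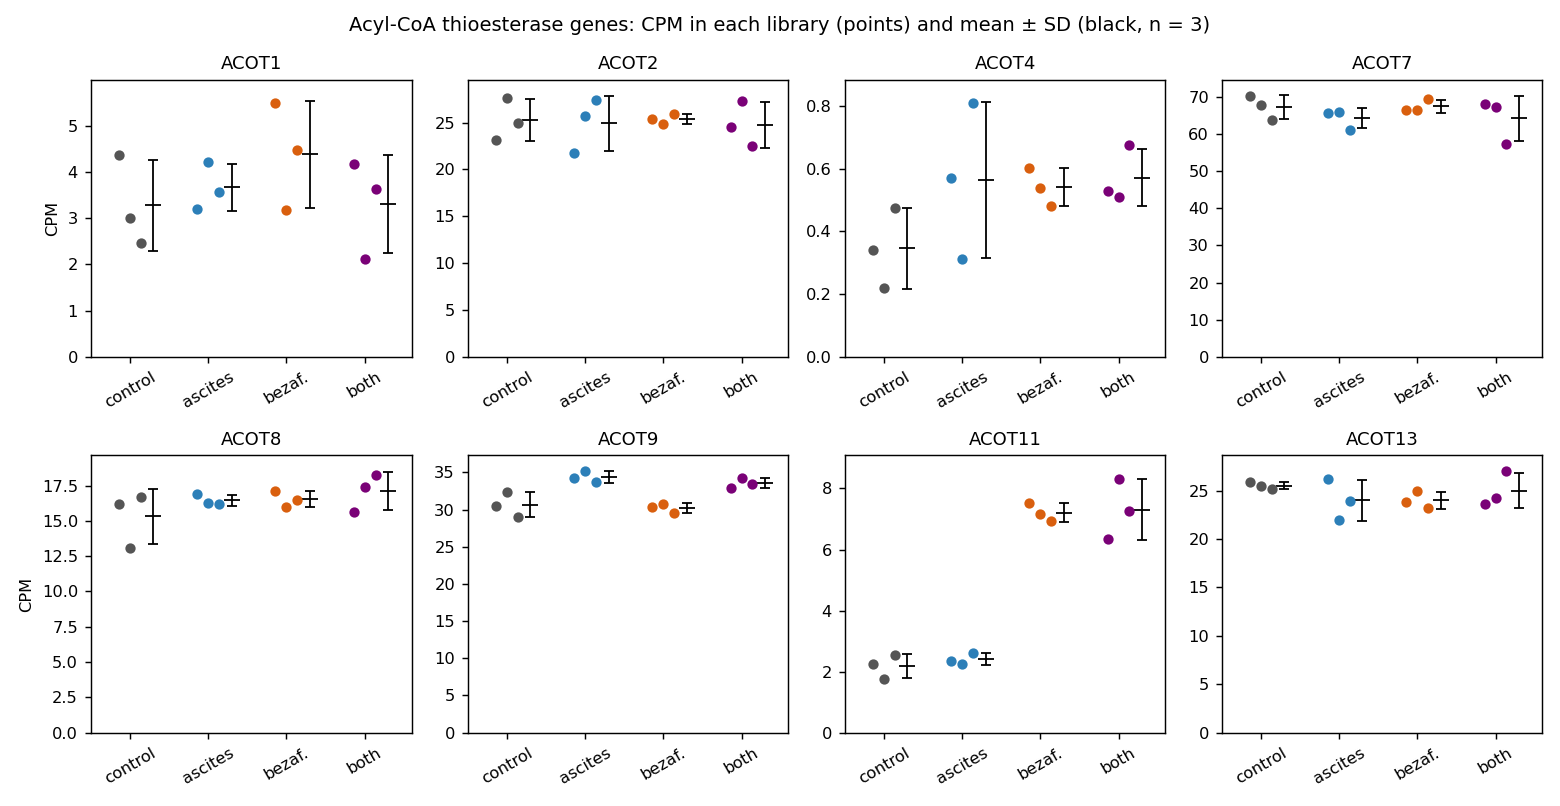
CPM (scaled by library size, vertical axes from 0) of the 8 thioesterase genes in the control, ascites, bezafibrate and combination groups. Points are libraries, and black marks are the mean ± SD of 3. ACOT11 is the gene whose 6 libraries with bezafibrate (6.33 to 8.32 CPM) lie above all 6 without it (1.76 to 2.63 CPM).

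With bezafibrate, ACOT11 rose about 3-fold, and none of the other 6 tested thioesterase genes passed the test. ACOT11 stood at 2.25, 1.76 and 2.54 CPM in the 3 control libraries and at 2.35, 2.26 and 2.63 CPM in the 3 ascites libraries. It stood at 7.54, 7.16 and 6.94 CPM in the bezafibrate libraries and at 6.33, 8.32 and 7.26 CPM in the combination libraries. The lowest library with the drug was thus well above the highest without it, and the libraries with and without ascites overlapped.

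Against control, the drug raised ACOT11 by 1.72 on the log2 scale (SE 0.171, 95% interval 1.38 to 2.07, adjusted p = 2.74e-10), a fold of 3.30. In the presence of ascites, the rise was 1.58 (SE 0.171, 95% interval 1.23 to 1.92, adjusted p = 2.24e-09), a fold of 2.98. These contrasts share no library. Their mean, called the averaged drug effect here, was 1.65 (SE 0.121, 95% interval 1.41 to 1.90, adjusted p = 4.26e-14), a fold of 3.14. The combination against control gave 1.73 (adjusted p = 4.64e-10). The difference between the drug responses with and without ascites was -0.15 (95% interval -0.66 to 0.36, adjusted p = 0.999), so a difference within that interval was not resolved. For that contrast edgeR called 0% of all genes (445 at an unadjusted p under 0.05), and DESeq2 and limma called 1 gene each. Without combination replicate 3 the averaged drug effect was 1.65 and the rise with ascites present 1.57.

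The drug moved a large part of the transcriptome, which sets the background for that count. In the averaged drug effect 28.3% of the 12470 genes were called, 15% higher and 13.2% lower, against 1 of the 7 thioesterase genes. Of those calls, 53.2% were higher with TMM scaling and 43.3% with upper-quartile scaling, so the majority direction turned. Without ascites 17.6% of genes were called, with it 17.8%, and for the combination against control 18.2%, and in each ACOT11 was again the 1 gene of 7. The share of thioesterase genes called was therefore not above that of all genes. The median change of the 7 was 0.004 on the log2 scale in the averaged drug effect, beside -0.005 for all genes. Groups that lay apart in the upward direction in all 6 libraries against 6 made up 9.01% of genes, and ACOT11 was the 1 such gene here.

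**Figure D2:**
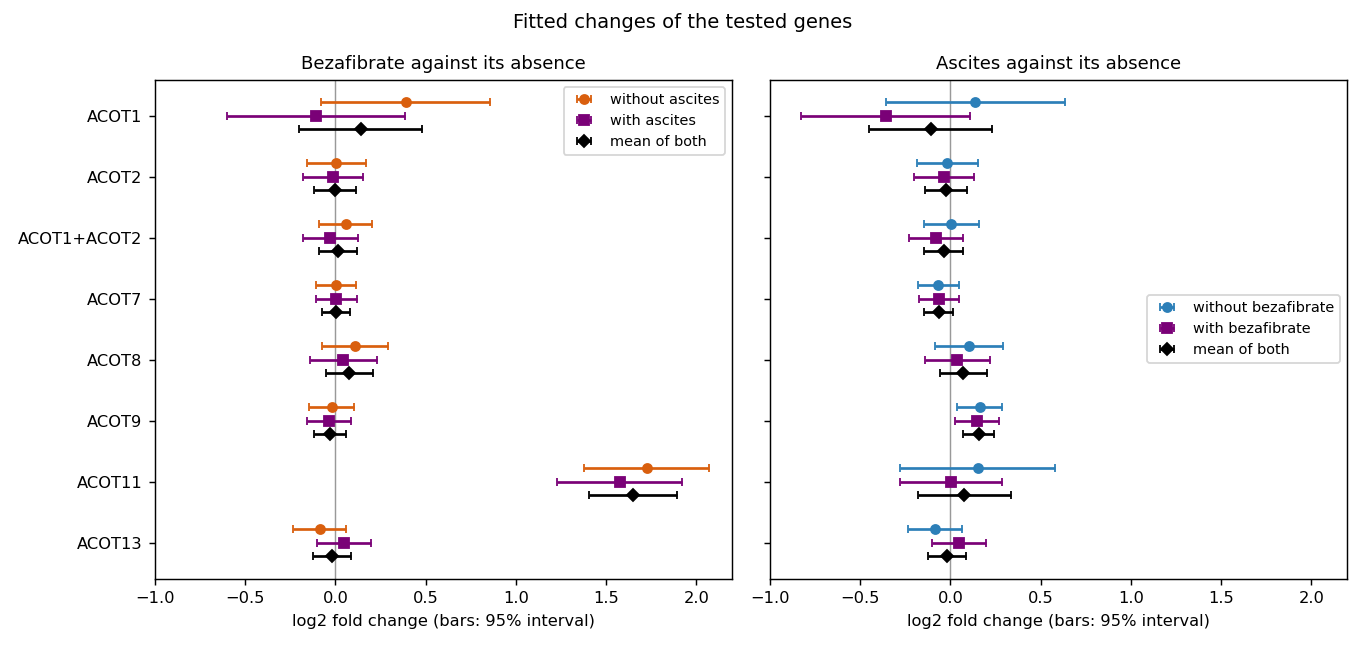
Log2 fold changes (horizontal axes) with 95% intervals for the 7 tested genes and for ACOT1 and ACOT2 summed. The left panel shows bezafibrate against its absence and the right panel ascites against its absence, each without the other agent, with it, and as the mean of both. ACOT11 lies at 1.58 to 1.72 in the left panel, and every other interval there includes 0.

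ACOT11 reads deserve a check against a neighbour, because FAM151A lies within its span on the opposite strand and the coding transcripts of both share 760 exonic bases. Whether the counting used strand is not given in the sources used here, so reads from the shared bases cannot be told apart. FAM151A had 91 counts over all libraries and ACOT11 had 841. FAM151A also rose with the drug, from 9 counts in the control and 4 in the ascites group to 43 with bezafibrate and 35 with both. Its averaged drug effect was 2.49 on the log2 scale (SE 0.412, adjusted p = 7.49e-06). The sum of both rows, computed after these values were seen, rose by 1.71 (SE 0.116, adjusted p = 3.38e-15). ACOT11 holds most of the summed counts, so the sum had to lie near ACOT11 alone. It cannot show which gene gave the shared reads. For 2 further thioesterase genes an opposite-strand neighbour shares exonic bases. SNX21 shares 1489 bases with ACOT8, of which 10 lie in coding transcripts of both, and its averaged drug effect was 0.17 (adjusted p = 0.0687). With all SNX21 transcripts counted, 16.8% of the 50-base windows of the main ACOT8 transcript occur in SNX21. C6orf62 shares 205 bases with ACOT13 and rose by 0.09 (adjusted p = 0.0461), while ACOT13 itself stood at -0.02.

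Even at its raised level, ACOT11 remained a low member of the family. Per length of its main transcript it reached 1.13 ± 0.0474 CPM per kb with bezafibrate and 1.15 ± 0.156 with both agents. With the shorter coding transcript, ACOT11 would stand at 2.34 CPM per kb with bezafibrate. ACOT1 with bezafibrate stood at a mean of 2.55 ± 0.676 CPM per kb on its longer transcript (libraries 1.85 to 3.20) and 3.44 on its shorter. Both means were above ACOT11 with either of its transcripts. With both agents ACOT1 was at 1.93 on its longer and 2.60 on its shorter transcript, and ACOT11 at 2.37 on its shorter. The order of ACOT1 and ACOT11 there depends on the transcript that is counted. ACOT11 made up 1.29% ± 0.255 of the counts of the 8 genes in control cells and 4.11% ± 0.166 with the drug (SD, n = 3). With both agents the share was 4.15% ± 0.504. ACOT7, the largest contributor, held 39.5% ± 0.969 in control cells and 38.4% ± 0.882 with the drug. The 8 genes together gave 169.6 ± 4.18 CPM in control, 170.6 ± 1.25 with ascites, 175.6 ± 1.65 with bezafibrate and 175.7 ± 5.67 with both.

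The sequence before the RefSeq start of ACOT11 was read for the DNA element that PPAR and RXR receptors bind, a direct repeat of the hexamer AGGTCA with a single base between the copies (DR1). RefSeq windows (GRCh38.p14) of 250 bases before to 50 after the start matched 7 of the 8 genes, with 11 windows, and both strands were searched. None of the 11 held the repeat, also when any base was allowed at position 4 of each hexamer. Among all 35114 windows, 0.0228% held the strict repeat and 0.310% the looser form. A lone AGGTCA, found in 13.8% of all windows, occurred in 1 window of ACOT7 and in none of ACOT11. The 250 bases before the RefSeq start of ACOT11 are shown because this gene rose (chr1:54547978-54548227, plus strand, no part marked). The GENCODE span of the gene begins further upstream, and that start was not searched. No match says only that these letters are not in this window:
ACOT11: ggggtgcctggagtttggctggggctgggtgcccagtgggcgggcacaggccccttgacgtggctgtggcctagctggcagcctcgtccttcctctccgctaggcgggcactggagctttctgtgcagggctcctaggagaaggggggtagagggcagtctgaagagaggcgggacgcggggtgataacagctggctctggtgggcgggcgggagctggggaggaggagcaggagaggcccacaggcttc

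Among the cytosolic and mitochondrial long-chain enzymes, ACOT1 and ACOT2 were judged together. ACOT2, the matrix enzyme, read 23.2, 27.6 and 24.99 CPM in control, 21.7, 25.7 and 27.4 with ascites, 25.4, 24.8 and 25.9 with bezafibrate and 24.5, 27.3 and 22.5 with both. The 4 groups overlapped throughout, and the averaged drug effect was -0.004 (95% interval -0.12 to 0.11). ACOT1, the cytosolic copy, read 4.36, 3.01 and 2.46 CPM in control, 3.20, 4.22 and 3.57 with ascites, 5.49, 3.17 and 4.47 with bezafibrate and 4.16, 2.12 and 3.63 with both. These groups overlapped as well, on 25 to 91 counts per library.

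The change of ACOT1 with the drug was 0.39 without ascites (95% interval -0.08 to 0.86, adjusted p = 0.285) and -0.11 with it (95% interval -0.60 to 0.39, adjusted p = 0.827). Neither passed the test, nor did the difference between them (-0.50, adjusted p = 0.999). The interval of the averaged drug effect ran from 0.871-fold to 1.40-fold for ACOT1, wider than for any other gene that was not called. The sum of the ACOT1 and ACOT2 rows does not depend on how shared reads were divided. It stood at 28.5 ± 1.80 CPM in control, 28.6 ± 3.21 with ascites, 29.7 ± 1.56 with bezafibrate and 28.0 ± 1.68 with both (SD, n = 3). Its averaged drug effect was 0.015 (SE 0.0527, 95% interval -0.09 to 0.12, adjusted p = 0.874), which leaves room for a rise of up to 1.09-fold.

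The division itself varied more than the sum. ACOT1 took 11.5% ± 3.75 of the counts of the pair in control, 12.8% ± 1.29 with ascites, 14.6% ± 3.21 with bezafibrate and 11.9% ± 4.05 with both (SD, n = 3). The lowest share was 7.23% (combination replicate 2) and the highest 17.8% (bezafibrate replicate 1). Each group overlapped every other.

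**Figure D3:**
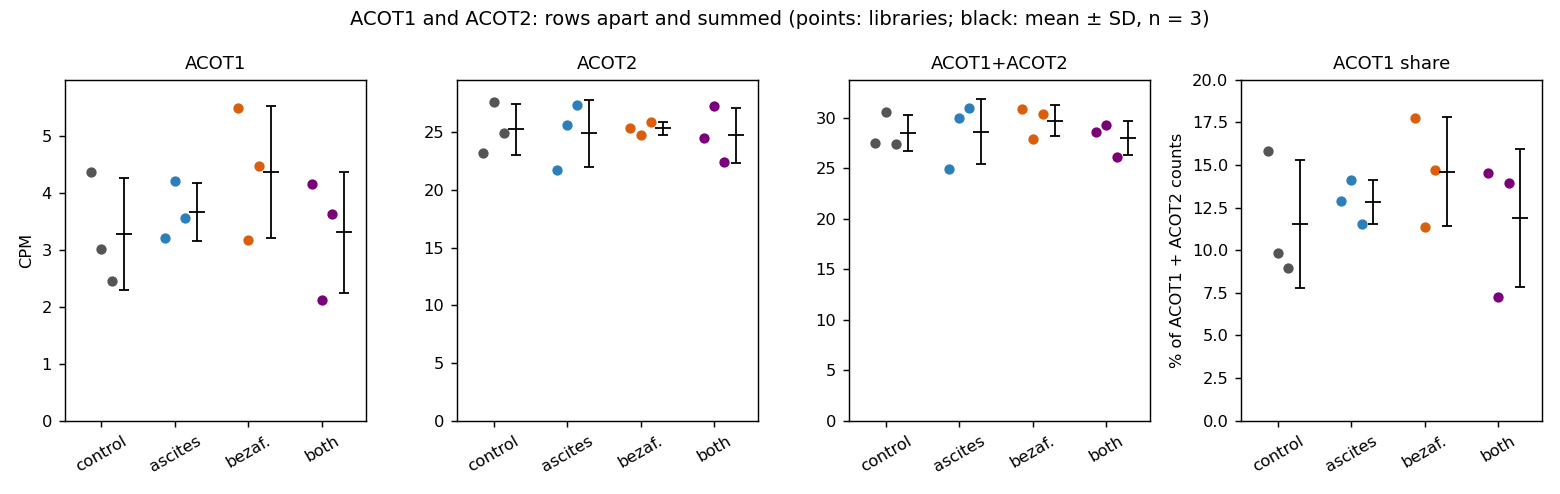
CPM of ACOT1, of ACOT2 and of both rows summed, and the share of ACOT1 among the counts of the pair in percent (vertical axes from 0), in the 4 groups. Points are libraries, and black marks are the mean ± SD of 3. The share of ACOT1 runs from 7.23% to 17.8%, while the summed groups have means of 28.0 to 29.7 CPM.

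The peroxisomal enzymes were ACOT8 and ACOT4. ACOT8 read 16.2, 13.1 and 16.7 CPM in control, 16.9, 16.2 and 16.2 with ascites, 17.1, 16.0 and 16.5 with bezafibrate and 15.6, 17.4 and 18.2 with both. The lowest value came from control replicate 2, and the groups overlapped. Its averaged drug effect was 0.08 (95% interval -0.05 to 0.21, adjusted p = 0.421), with an upper bound of 1.15-fold. ACOT4 had 3 to 12 counts per library, at 5, 3 and 6 in control, 8, 4 and 12 with ascites, 10, 10 and 7 with bezafibrate and 9, 6 and 8 with both. Its group means were 0.346 ± 0.128, 0.563 ± 0.248, 0.541 ± 0.0610 and 0.571 ± 0.0910 CPM in that order (SD, n = 3). The bezafibrate libraries and the combination libraries all lay above the control libraries for ACOT4, and the ascites libraries overlapped with every group. Across all genes tested, groups lay apart in the upward direction in 17.2% for bezafibrate against control and in 15.6% for the combination against control. When no filter on low counts was used, the averaged drug effect of ACOT4 was 0.32 (SE 0.397, adjusted p = 0.691). No change of ACOT4 was detected at this depth, where a modest change would not be resolved.

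ACOT7, a cytosolic enzyme that is abundant in neurons, had the narrowest interval of the 7 tested genes. It read 70.0, 67.6 and 63.6 CPM in control, 65.6, 65.9 and 61.0 with ascites, 66.4, 66.3 and 69.3 with bezafibrate and 68.1, 67.1 and 57.2 with both. The lowest value was that of combination replicate 3, the library that stood alone on the second component. The averaged drug effect was 0.004 (95% interval -0.07 to 0.08), within 0.950-fold and 1.06-fold. ACOT13 read 25.9, 25.5 and 25.1 CPM in control, 26.2, 21.9 and 23.9 with ascites, 23.9, 24.9 and 23.2 with bezafibrate and 23.6, 24.3 and 27.02 with both. Its bezafibrate libraries lay below the control libraries without overlap, as did 16.3% of genes in that comparison, and the change of -0.09 did not pass the test (adjusted p = 0.493). With ascites present the ACOT13 value was 0.05 and the groups overlapped.

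ACOT9, a mitochondrial enzyme, was the gene of the family whose values lay apart with ascites. It read 30.5, 32.4 and 29.03 CPM in control and 34.2, 35.2 and 33.7 with ascites. With bezafibrate it read 30.3, 30.8 and 29.5 CPM, and with both agents 32.96, 34.3 and 33.5. All 6 libraries with ascites lay above all 6 without, whether or not the drug was present. The values were 0.16 for ascites against control (SE 0.0617, 95% interval 0.04 to 0.29, unadjusted p = 0.0117, adjusted p = 0.692) and 0.15 for the combination against bezafibrate (SE 0.0605, 95% interval 0.03 to 0.27, unadjusted p = 0.0185, adjusted p = 0.845). Neither passed the adjusted threshold over all genes, in comparisons where 0.0882% and 0.128% of genes did, and edgeR, DESeq2 and limma alike called 0 of the 7 thioesterase genes there. Groups lay apart in the upward direction in 5.64% and 4.44% of genes.

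The mean of both ascites contrasts, added after the ACOT9 values were seen, was 0.16 (SE 0.0432, 95% interval 0.07 to 0.24, unadjusted p = 0.000894, adjusted p = 0.157), a fold of 1.11. It did not pass the threshold either, where 0.281% of genes did. In the same comparison 0.104% of genes had all 6 libraries with ascites above the 6 without. The averaged drug effect on ACOT9 was -0.03 (95% interval -0.12 to 0.06). None of the other 6 tested genes had groups apart with ascites, and their averaged ascites values ran from -0.11 for ACOT1 to 0.08 for ACOT11.

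Markers of other cells that ascites could carry were read beside ACOT9. Of 8 leukocyte markers, 5 (PTPRC, CD3E, TYROBP, S100A8 and S100A9) had 0 counts in every library, as did all 3 platelet markers. The summed leukocyte markers, nearly all CD68, were at 74.4 to 77.9 CPM in control and 75.5 to 84.2 with ascites. The 3 erythrocyte markers summed to 0.588 to 1.09 CPM and 0.606 to 1.41 CPM, the 2 mesothelial markers to 0.882 to 1.27 and 0.641 to 1.09, and the 4 fibroblast markers to 191.4 to 196.2 and 185.8 to 193.2, respectively. These ranges overlapped. With the drug present, the erythrocyte sums lay apart, at 0.543 to 0.807 CPM with bezafibrate and 1.01 to 1.41 with both agents, as did the mesothelial sums, at 1.21 to 1.29 and 1.41 to 2.46. In that comparison 4.44% of all genes tested lay apart in the upward direction. Both sums rest on few counts. Over all libraries HBA1 had 49 with ascites and 45 without, HBA2 32 and 19, HBB 10 and 5, CALB2 74 and 75, and UPK3B 32 and 30. The 9 markers of the line summed to 5563 to 5666 CPM in control and 5724 to 5871 with ascites. With bezafibrate the sum was 5719 to 5980 and with both agents 6172 to 6236, higher with ascites in each case. That sum was nearly all KRT8, KRT18 and KRT7. In the mean of both ascites contrasts KRT7 and EPCAM stood at 0.08 and KRT18 at 0.07, but CDH1 at -0.14 and PAX8 at -0.12. No single marker was called in ascites against control, in the combination against bezafibrate or in the mean of both, where KRT8 stood at 0.07 (adjusted p = 0.0578). The part of these shifts in the ACOT9 values was not tested. The summed leukocyte markers were at 92.3 to 96.9 CPM with bezafibrate and 93.8 to 101.2 with both agents, led by CD68, which rose by 0.32 on the log2 scale (adjusted p = 4.44e-10). The summed fibroblast markers were at 166.4 to 177.2 CPM with bezafibrate and 158.96 to 176.7 with both, and COL1A1, COL3A1 and LUM were called lower. Of the markers of the line, KRT7, CDH1 and PAX8 rose with the drug. KRT8 (-0.03), KRT18 (-0.02) and EPCAM (0.10) were not called, and MUC16, WT1 and MSLN were not tested. The part of these drug shifts in the ACOT11 result was not tested.

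Genes of the same acyl-CoA pathway set the 8 thioesterase genes in context, counted in the averaged drug effect. Of the 15 tested acyl-CoA synthetase genes, whose enzymes run the opposing reaction, 8 were higher and 0 lower, with a median of 0.19 on the log2 scale. The 3 largest were ACSL1 at 1.57 (adjusted p = 6.58e-20), ACSL5 at 1.31 (adjusted p = 1.02e-22) and the medium-chain enzyme ACSM3 at 1.12 (adjusted p = 7.94e-12). ACSL1 went from 6.84 ± 0.790 CPM in control to 23.2 ± 0.269 with bezafibrate and was at 17.9 ± 1.69 with both agents (SD, n = 3). Its averaged drug effect was a fold of 2.98, made up of 3.41 without ascites and 2.60 with it. The difference between these did not pass the test (-0.39 on the log2 scale, adjusted p = 0.999).

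Among other enzymes that hydrolyse CoA esters or CoA, 8 of 13 listed genes were tested, and 1 of them, the thioesterase gene THEM4, was higher (0.34, adjusted p = 1.02e-08). The median of that list was 0.04. Of 12 genes for acyl-CoA binding and CoA synthesis, 4 were higher and 0 lower, with a median of 0.0004. DBI, the main acyl-CoA binding protein, rose by 0.54, the peroxisomal protein ACBD5 by 0.22 and the pantothenate kinase PANK3 by 0.20.

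Fatty acid oxidation was counted in the same way. Of 21 tested genes of mitochondrial oxidation and the carnitine shuttle, 16 were higher and 0 lower, with a median of 0.30. SLC25A20, the carnitine carrier, rose by 1.20, CPT1A, which makes acylcarnitines at the outer membrane, by 0.97, and ETFDH, which passes electrons on to ubiquinone, by 0.71. Of 18 genes of peroxisomal oxidation, 8 were higher and 0 lower, with a median of 0.17. HSD17B4 rose by 0.61. The transporter gene ABCD2, at a mean of 1.44 CPM, rose by 0.89, made up of 1.36 without ascites (adjusted p = 0.00111) and 0.42 with it (adjusted p = 0.442), and the difference between these did not pass the test (-0.94, adjusted p = 0.999).

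All 6 reference targets of PPAR receptors, a list chosen with earlier results of these data known, were higher, with a median of 3.18. The largest were PDK4, a kinase that restrains pyruvate dehydrogenase, at 4.07, the lipid carrier gene FABP4 at 3.73 and ANGPTL4, an inhibitor of lipoprotein lipase, at 3.63. The ACOT11 value of 1.65 lay below these 3 and above the lowest of the list, CPT1A at 0.97. Of the receptors, PPARD rose by 0.55 (adjusted p = 1.66e-07), from 9.84 ± 0.790 CPM in control to 15.2 ± 0.963 with the drug. PPARG was lower, at 89.8 ± 1.70 CPM in control and 68.8 ± 4.57 with the drug (-0.38 on the log2 scale, adjusted p = 4.69e-12). PPARA read 4.82 ± 0.508 CPM in control and 5.08 ± 0.649 with the drug, RXRA and RXRB were not called, and RXRG had 0 counts in all 12 libraries. These lists are given as counts beside the 28.3% of all genes that were called.

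**Figure D4:**
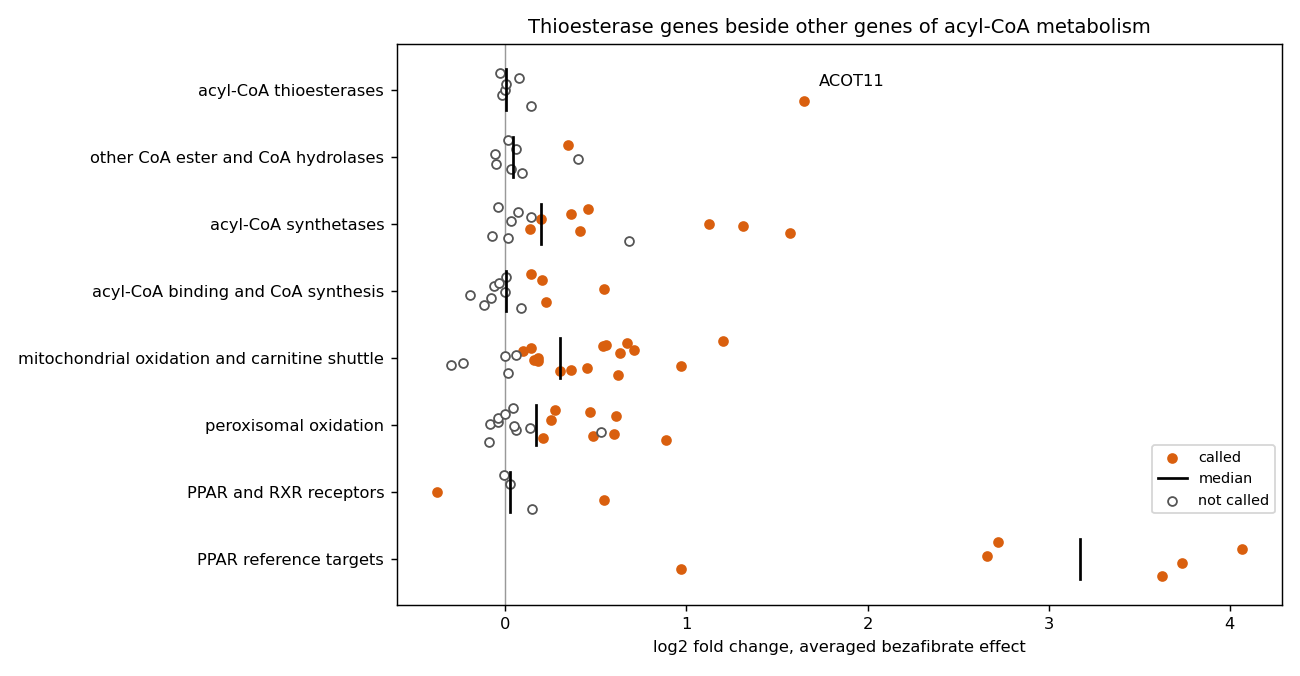
Log2 fold changes in the averaged drug effect (horizontal axis) for the thioesterase genes and for lists of other genes of acyl-CoA metabolism, 1 point per tested gene, filled where called at an adjusted p under 0.05. Vertical bars are list medians. ACOT11 is at 1.65 and the other 6 thioesterase genes lie between -0.03 and 0.14, while the PPAR reference targets have a median of 3.18.

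Over the 12 libraries, the 3 genes with the pattern most like that of ACOT11, by Pearson r of log2 CPM among 11919 genes, were ACSM3 (r = 0.990), SH2B3 (r = 0.989) and TWSG1 (r = 0.988). The libraries with and without the drug form separate clusters in these genes, and within groups r was 0.665, 0.525 and 0.428. Their averaged drug effects were 1.12 for ACSM3, 0.61 for SH2B3 and 0.95 for TWSG1. The libraries share depth and scaling between genes, so these values are a description.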

How the data were processed

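RNA was sequenced from 12 libraries of CAOV3 cells, grouped by their labels. The authors deposited whole-number counts per gene, 1 table per library. Trimmomatic 0.39, STAR 2.7.9a, RSEM 1.3.3, DESeq2 1.28.1 and GRCh38 are listed, with no role, per the submitters' processing notes. Rounding, annotation release and strandedness are not given in the sources used here. RSEM divides reads of near-identical genes by estimation, so the ACOT1 and ACOT2 rows were also summed.

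Genes were kept by filterByExpr (minimum count 10, minimum total 15), scaled by TMM and tested with the quasi-likelihood F test of edgeR 4.0.16 in R 4.3.3, with a mean for each group and 8 residual degrees of freedom. A call needed an adjusted p (Benjamini-Hochberg, over 12470 genes) below 0.05. SEs were obtained from the log2 change and F. TMM scaling was also used for CPM. The fit was tested on simulated data. Positions, transcripts and shared windows come from GENCODE v29, and promoter windows from RefSeq. Identifier versions in the tables differ from that release, so genes were matched by symbol.

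The members and lists were chosen with earlier results of these data known. The rule for named genes took every member, from each list up to 3 called genes with the largest averaged drug effect and a mean of at least 1 CPM, the receptors, ACOT6, ACOT12 and the 3 genes most like each called member. A gene that this rule also took is not reported here. FAM151A, SNX21 and C6orf62 were named for their overlap, after their values were seen. Alternatives were DESeq2 1.42.0, limma 3.58.1, other scaling, filters, designs and libraries left out. No replicate pair was a duplicate.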

Additional observations from a re-analysis of the deposited data

How the results depend on the processing

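No call of a thioesterase gene changed in 902 alternative values of 56 results, nor in the contrast added later. The 84 sign changes all concerned values that were not called, at an absolute log2 change of at most 0.201. ACOT11 stayed at 1.59 to 1.71 in the averaged drug effect. In that effect, the sum of ACOT1 and ACOT2 was -0.00234 and ACOT7 -0.0138 with upper-quartile scaling, and ACOT2 was 0.000198 with limma. As single libraries were left out, the sum ran from -0.0288 to 0.0471, ACOT2 from -0.0482 to 0.0342, ACOT7 from -0.0216 to 0.0398 and ACOT13 from -0.0473 to 0.0156. With ascites present, ACOT1 ran from -0.342 to 0.108 and the sum from -0.116 to 0.0368.

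Counts over all genes moved in the small contrasts, and the cause was not tested. Ascites against control gave 11 calls, 59 with no filter, 33 from its own groups alone and 3 to 5 with a library left out. The combination against bezafibrate gave 16, with 52, 7 and 9 to 28 (28 without combination replicate 3), and 10 with limma. The interaction gave 0, with 36 under no filter, 1 with DESeq2, 1 with limma and 0 to 3 with a library left out (3 without combination replicate 1). No pairing of libraries by replicate number was seen. Of 18 same-number pairs, 0 had deviations correlated above 0.1, and 1 of 12 libraries correlated best with its own number. These correlations cannot show whether libraries of the same number were set up together. With a replicate block the interaction gave 1 call and the averaged drug effect 3453 against 3525.

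Depth limits ACOT4, which had 3 to 12 counts per library.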
